A study of Mus musculus with 6 samples.

Results

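Intermediate filament proteins are the rope-like part of the cytoskeleton, and the lamins are their nuclear relatives. The 10 genes described here are nestin (Nes), vimentin (Vim), glial fibrillary acidic protein (Gfap), alpha-internexin (Ina), the light, medium and heavy neurofilament genes (Nefl, Nefm and Nefh), and the lamin genes Lmna, Lmnb1 and Lmnb2. They were taken by gene name from a table of 54532 genes. All 10 were found once each, and all 10 passed the filter on low counts that left 16606 genes for testing.

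RNA libraries were made from mouse primary neurospheres, which are floating colonies of neural progenitor cells. The cells came from C57BL/6 embryos at E14.5, with both the dorsal cortex and the walls of the lateral ventricles named as their source in the labels, and were cultured until day 6 with EGF and bFGF, each at 20 ng/ml. The libraries labelled WT (numbers 3, 6 and 7) were compared with the libraries labelled Ash2l cKO (called KO here, numbers 1, 2 and 3). Ash2l encodes a core subunit of the complexes that methylate histone H3 at lysine 4, and its deletion relied on D6-Cre, a transgene active in the developing dorsal forebrain. Whether the WT embryos carried the transgene or a floxed allele is not stated in the labels, nor is the number of embryos or cultures behind each group. The p-values therefore reflect only how far these libraries vary, which may be technical variation. Values per library are given in the order WT 3, WT 6, WT 7 and KO 1, KO 2, KO 3.

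Cytoplasmic filament proteins pair through a long coiled-coil rod and assemble into filaments of mixed composition. Nestin and vimentin are the filaments of neural progenitors, GFAP is added as cells become astrocytes, and alpha-internexin appears in young neurons before the neurofilament triplet. The lamins form a mesh beneath the inner nuclear membrane, where B-type lamins (Lmnb1, Lmnb2) stay anchored by a lipid tail and the A-type lamins (Lmna) are most abundant in differentiated and mechanically loaded cells.

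Total counts ran from 16764480 to 21983659 per library. Levels are given as CPM, the TMM-normalised read count scaled to the library total. The targeted gene Ash2l averaged 113 ± 3.55 CPM over the WT libraries and 95.9 ± 8.41 CPM over the KO libraries (SD, n = 3 each). Its log2 fold change of -0.24 (SE 0.10) did not pass the threshold (edgeR quasi-likelihood test, adjusted p = 0.119). By library it measured 116, 113 and 109 CPM in WT and 86.3, 99.3 and 102 CPM in KO. The groups did not overlap, as for 48.6% of all tested genes. The count covers the whole gene, and which exons were deleted is not given in the sources used here. Markers of blood vessels and microglia were near 0, with sums of at most 6.98 and 16.1 CPM over 6 genes each. Markers of mural, meningeal and fibroblast cells summed to 707 CPM in KO 1 and to between 36.6 and 89.2 CPM in the other libraries. WT 3 stood apart from WT 6 and WT 7 in the astrocyte, neuron and cycling cell markers, and its values are given beside the results they touch.

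The promoter windows of 4 members are shown because these genes took different courses in KO: Nes and Lmnb2 rose, Gfap fell and Vim did not pass the test. Each is the stretch of 250 bases before the RefSeq start (GRCm38.p6), read 5′ to 3′ on the gene's strand, and capitals mark any match to the motifs listed after them. The windows are chr3:87970843-87971092 (plus strand) for Nes, chr2:13574061-13574310 (plus strand) for Vim, chr11:102897201-102897450 (minus strand) for Gfap and chr10:80918246-80918495 (minus strand) for Lmnb2. 
Nes: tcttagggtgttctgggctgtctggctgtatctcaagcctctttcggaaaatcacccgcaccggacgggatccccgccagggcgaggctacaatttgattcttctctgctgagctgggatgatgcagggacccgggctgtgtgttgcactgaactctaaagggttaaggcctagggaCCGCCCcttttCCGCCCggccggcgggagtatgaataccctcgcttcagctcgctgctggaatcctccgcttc
Vim: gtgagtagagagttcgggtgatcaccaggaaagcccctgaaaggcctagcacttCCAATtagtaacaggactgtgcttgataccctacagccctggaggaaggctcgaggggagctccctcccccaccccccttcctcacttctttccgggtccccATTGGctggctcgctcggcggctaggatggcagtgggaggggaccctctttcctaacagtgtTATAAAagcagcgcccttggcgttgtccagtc
Gfap: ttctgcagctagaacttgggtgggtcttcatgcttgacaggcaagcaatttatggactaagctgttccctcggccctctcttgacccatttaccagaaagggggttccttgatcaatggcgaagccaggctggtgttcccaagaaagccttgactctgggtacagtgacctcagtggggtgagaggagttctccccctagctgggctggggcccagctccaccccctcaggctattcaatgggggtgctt
Lmnb2: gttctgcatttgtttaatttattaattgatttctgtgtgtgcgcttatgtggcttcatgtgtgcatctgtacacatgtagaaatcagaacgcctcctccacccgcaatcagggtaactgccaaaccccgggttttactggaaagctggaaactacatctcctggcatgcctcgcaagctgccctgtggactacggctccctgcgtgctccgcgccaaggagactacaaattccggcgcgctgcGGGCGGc

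Both strands were searched for the CHR element of cell cycle genes (TTTGAA), the CCAAT box (CCAAT), the TATA box (TATAAA), the GC box (GGGCGG), the STAT palindrome (TTCNNNGAA) and the AP-1 site (TGANTCA). The Nes window held 2 GC boxes, starting 73 and 62 bases before the RefSeq start, and the Lmnb2 window held 1, starting 7 bases before it. The Vim window held 2 CCAAT boxes, at 196 and 94 bases, and a TATA box at 32 bases. None of the 6 motifs matched in the Gfap window. Among all 32851 RefSeq windows of this length, 32.7% held the GC box, 33.8% the CCAAT box, 12.4% the TATA box, 16% the CHR element, 7.02% the STAT palindrome and 6.75% the AP-1 site. The GC content was 58.8% for Nes, 58.4% for Vim, 55.6% for Gfap and 52.8% for Lmnb2, against a median of 52.4% over all windows. The Gfap start used by RefSeq lies 3712 bases inside the span that the counts were summed over. RefSeq windows were matched for 6 of the 10 members, these 4 with Ina and Lmna.

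In KO spheres Nes was 4.64-fold higher and Gfap 19.9-fold lower than in WT, while Vim, the most abundant filament transcript of the KO spheres per length, stayed at 1.07-fold. Both B-type lamin genes rose, Lmnb1 2.73-fold and Lmnb2 2.07-fold, and Lmna stood at 1.17-fold without passing the test. The neuronal filament genes all had higher means in KO, and of these only Nefh passed the threshold, on few reads. Over the 10 genes, 4 rose and 1 fell at an adjusted p under 0.05 (edgeR quasi-likelihood, Benjamini-Hochberg over all tested genes). Of all tested genes 29% passed, 13.5% as higher and 15.5% as lower in KO. WT and KO libraries were fully separated in 5 of the 10 members, against 48.6% of all tested genes. The same 4 genes with Ina, Nefl and Nefm passed as higher without WT 3, 7 in all, in a fit that called 20.2% of all its tested genes higher. The median log2 fold change was 1.09 over the members and 0.00 over all tested genes.

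**Figure D1:**
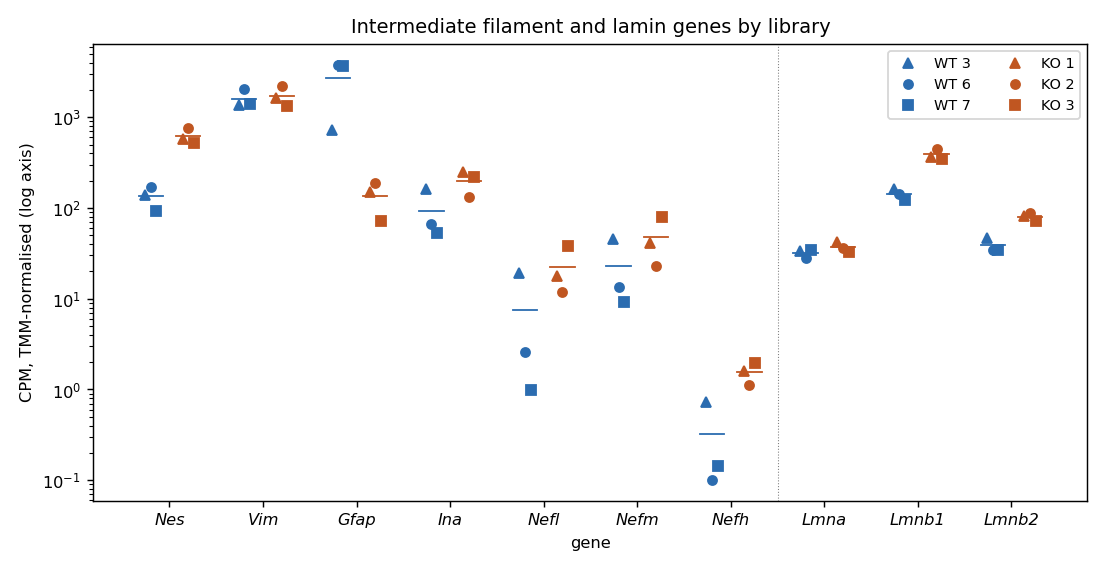
CPM of each of the 10 genes (log axis) in 3 WT (blue) and 3 KO (orange) libraries, with the group mean as a line; the dotted line parts cytoplasmic filament genes from lamin genes. Nes, Lmnb1 and Lmnb2 lie higher in every KO library and Gfap lower, and WT 3 sits among the KO libraries for Nefl and Nefm.

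Nes encodes nestin, a large filament protein that needs vimentin to assemble and is the customary marker of neural stem cells (ENSMUSG00000004891, chromosome 3 from 87971078 to 87980451, plus strand, mm10). It measured 138, 171 and 93.8 CPM across the WT libraries, and 577, 769 and 525 CPM across the KO libraries. The lowest KO library thus lay well above the highest WT library. On the log2 scale Nes was 2.21 higher (SE 0.26, edgeR quasi-likelihood, adjusted p = 0.00242), and with 1 library left out it ran from 2.00 to 2.42. WT 3 did not stand apart from WT 6 and WT 7 in Nes, lying between them. Markers of cycling cells, described with the lamins, were also higher in every KO library, and their part in the Nes result was not tested.

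Vim encodes vimentin, the filament protein that progenitors, young astrocytes and mesenchymal cells share (ENSMUSG00000026728, chromosome 2 from 13573927 to 13582826, plus strand). Its levels were 1381, 2026 and 1392 CPM across the WT libraries, and 1640, 2182 and 1325 CPM across the KO libraries. The groups overlapped throughout, with WT 6 and KO 2 the highest library of each. The log2 fold change of 0.10 (SE 0.25) did not pass (edgeR quasi-likelihood, adjusted p = 0.774), and its sign turned to -0.11 without KO 2. KO 1, the library with the most mural, meningeal and fibroblast marker RNA, was in the middle of the KO values.

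Gfap encodes the filament protein of mature and reactive astrocytes (ENSMUSG00000020932, chromosome 11 from 102887336 to 102900912, minus strand). It reached 3789 and 3678 CPM in WT 6 and WT 7 but only 730 CPM in WT 3, against 151, 189 and 71.1 CPM across the KO libraries. Every KO library was below every WT library, and WT 3 lay between the other WT libraries and the KO libraries, about 48.3% of the way on a log2 scale. On the log2 scale this was a change of -4.32 (SE 0.71, edgeR quasi-likelihood, adjusted p = 0.00623), at -4.77 without WT 3 and at -3.99 without KO 3. The WT spread was wide, with a coefficient of variation of 63.5%.

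Most of the other astrocyte genes examined were also lower in KO. The summed level of 12 astrocyte markers, Gfap not among them, came to 2774, 5373 and 6435 CPM over the WT libraries, and 1595 to 2240 CPM in the KO libraries. Of these 12 genes 8 fell and 0 rose (66.7% called, against 29% of all tested genes). Their median change was -2.33 in log2 units, against -4.32 for Gfap. Of the 12, only Agt fell further than Gfap (-6.27, SE 0.33, edgeR adjusted p = 0.000735), and it was named after its values were seen. Among the 3 most abundant, the glycolytic enzyme gene Aldoc (log2 fold change -2.26, SE 0.31) and the glutamate transporter gene Slc1a2 (-2.09, SE 0.60) fell (edgeR adjusted p = 0.00368 and 0.0401), whereas the transporter gene Slc1a3, which radial glia also express, stood at -0.51 (SE 0.34, edgeR adjusted p = 0.279). The call of Slc1a2 held without WT 3 and ended on leaving out any other library (edgeR adjusted p from 0.0926 to 0.117). In bulk RNA, fewer cells of a type and less RNA per cell cannot be told apart. The part of astrocyte number in the Gfap result was not tested.

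Oligodendrocyte genes, which belong to the other glial lineage, also differed. Among 10 lineage markers, 7 passed as lower and 0 as higher (70% called, against 29% of all tested genes). Their median log2 fold change was -3.13, with sums of 3988 to 4792 CPM in WT against 1162 to 2163 CPM in KO. Cnp, an enzyme of myelinating cells, fell by 3.42 (SE 0.36, edgeR adjusted p = 0.00189), while the lineage factors Olig1 (-0.11, SE 0.27) and Olig2 (-0.02, SE 0.22) did not pass (edgeR adjusted p = 0.766 and 0.942). Another lineage factor, Sox10 (-2.83, SE 0.85), and the progenitor gene Pdgfra (-1.93, SE 0.23) fell (edgeR adjusted p = 0.0456 and 0.00248). The progenitor gene Cspg4 did not pass (0.51, SE 0.40, edgeR adjusted p = 0.351). Sox10, Pdgfra and Cspg4 were named after their values were seen. The span of Cnp overlaps that of Dnajc7, and reads of the pair may be shared.

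**Figure D2:**
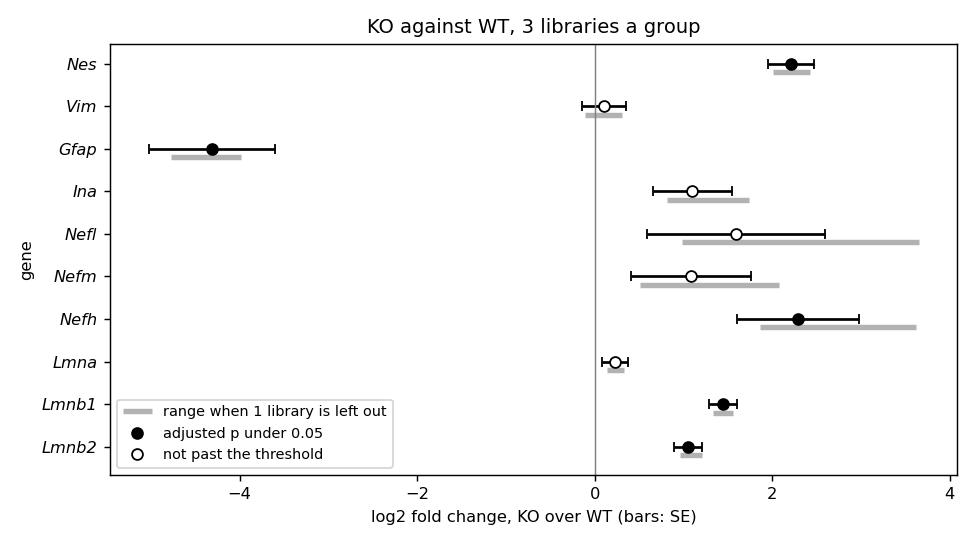
Log2 fold change of KO over WT for each gene, with bars for the SE, filled points where the adjusted p is under 0.05, and a grey strip for the range when 1 library is left out. Nes, Lmnb1 and Lmnb2 have short strips above 0 and Gfap lies at -4.32, whereas the strips of Nefl, Nefm and Nefh are long.

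Ina encodes alpha-internexin, the filament protein that precedes the neurofilament triplet in developing neurons (ENSMUSG00000034336, chromosome 19 from 47014698 to 47025327, plus strand). It measured 161, 66.6 and 53.1 CPM across the WT libraries, and 251, 133 and 217 CPM across the KO libraries. WT 3 exceeded KO 2, so the groups overlapped by that 1 library. The log2 fold change was 1.10 (SE 0.44) and did not pass (edgeR quasi-likelihood, adjusted p = 0.102). Without WT 3 it was 1.74 and passed (edgeR adjusted p = 0.00315), and with all libraries it passed with DESeq2 (adjusted p = 0.0249), limma-voom (adjusted p = 0.00609) and edgeR without an expression filter (adjusted p = 0.0298). The span of Ina overlaps that of Nt5c2 on the other strand, whose mean count is 30.4% of that of Ina, and reads there may be shared.

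Nefl and Nefm encode the light subunit, which forms the filament core, and the medium subunit, which carries a projecting tail (ENSMUSG00000022055 and ENSMUSG00000022054, chromosome 14). Nefl measured 19.1, 2.61 and 0.994 CPM across the WT libraries, and 17.7, 11.9 and 38.3 CPM across the KO libraries. Nefm measured 45.4, 13.6 and 9.14 CPM in the same WT libraries, and 41.5, 22.8 and 79.5 CPM in the KO libraries. For both genes WT 3 exceeded KO 1 and KO 2, and WT 6 and WT 7 were the lowest of all. Within WT, Nefl spanned a 19.2-fold range, the widest of the 10 genes.

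Neither gene passed, with log2 fold changes of 1.59 (SE 1.0) for Nefl and 1.08 (SE 0.67) for Nefm (edgeR quasi-likelihood, adjusted p = 0.259 and 0.254). Without WT 3 both passed, Nefl at 3.65 (edgeR adjusted p = 0.00483) and Nefm at 2.08 (edgeR adjusted p = 0.0173), and without KO 3 they stood at 0.98 and 0.51. Limma-voom with quality weights called both with all libraries (adjusted p = 0.00639 and 0.0324). The genes lie on opposite strands, Nefl from 68083863 to 68089095 and Nefm from 68082590 to 68124846, so that the annotated span of Nefm contains that of Nefl. In GENCODE M21, whose spans equal those of the table, 1108 of the 3380 exonic bases of Nefl are exonic for Nefm too. Whether the counting used strand is not given in the sources used here, so reads from these bases cannot be assigned to either gene with certainty.

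Nefh encodes the heavy subunit of mature, myelinated axons (ENSMUSG00000020396, chromosome 11 from 4938754 to 4948064, minus strand) and was barely detected. It had 13, 2 and 3 reads across the WT libraries, and 28, 21 and 41 reads across the KO libraries. Every KO library had more than every WT library, both as reads and as CPM. Over all libraries, 90 KO reads against 18 WT reads gave a ratio of 5.16 (95% exact counting interval 3.09 to 9.10, counting error only). The fitted log2 fold change of Nefh was 2.29 (SE 0.68), just past the threshold (edgeR quasi-likelihood, adjusted p = 0.0446). The call ended on leaving out any library other than WT 3 (edgeR adjusted p from 0.0869 to 0.136), and without WT 3 the log2 fold change was 3.62.

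The neuronal filament genes and the sum of other neuronal genes were both highest in WT 3 within WT and had higher means in KO. The summed level of 12 neuron markers reached 3452 CPM in WT 3, but 2140 CPM in WT 6 and 1844 CPM in WT 7, and 3524 to 5266 CPM in KO. Within KO the orders differed. The marker sum was 5266, 3524 and 3905 CPM, highest in KO 1 like Ina, whereas Nefl, Nefm and Nefh were highest in KO 3. Of these markers 3 rose and 0 fell (25% called, against 29% of all tested genes), and the median log2 fold change was 1.20. The 3 most abundant did not pass (edgeR quasi-likelihood): the microtubule-binding genes Map2 (-0.26, SE 0.16, adjusted p = 0.238) and Mapt (1.16, SE 0.37, adjusted p = 0.0527), and the neuronal tubulin gene Tubb3 (1.41, SE 0.47, adjusted p = 0.0636). Without WT 3, a setting added for the markers after the data were seen, 9 of the 12 rose, against 20.2% of all tested genes. Among them were Mapt at 1.61 and Tubb3 at 2.16 (edgeR adjusted p = 0.00363 and 0.00075). The part of neuron number in the filament values was not tested.

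**Figure D3:**
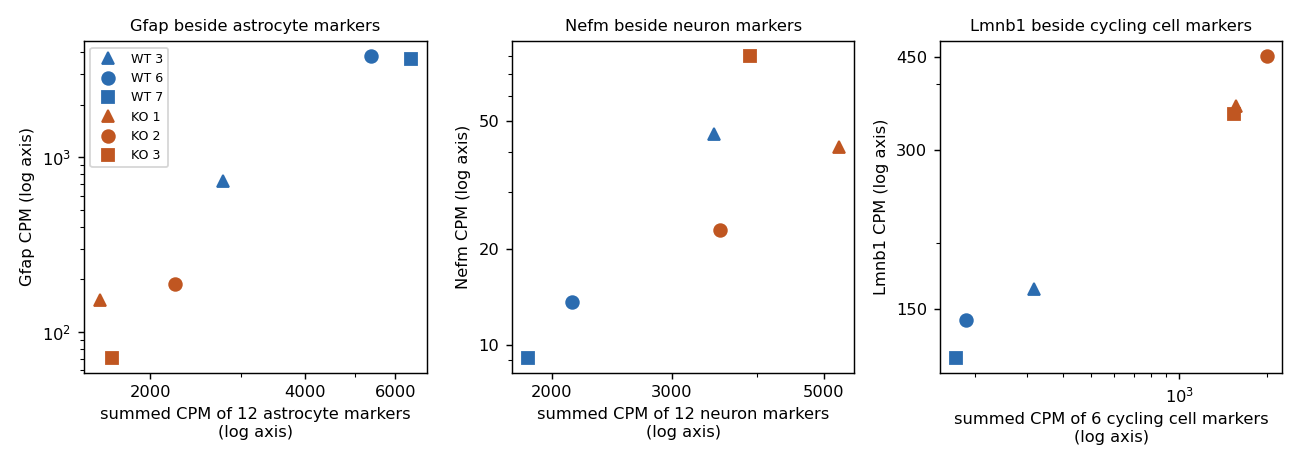
Each panel sets 1 member's CPM against the summed CPM of a marker list in the same library (log axes; WT blue, KO orange). WT 3, the blue triangle, lies nearest to the KO libraries for Gfap beside astrocyte markers (2774 CPM), for Nefm beside neuron markers (3452 CPM) and for Lmnb1 beside cycling cell markers (318 CPM).

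Both B-type lamin genes rose. Lmnb1 (ENSMUSG00000024590) measured 164, 143 and 121 CPM across the WT libraries, and 364, 452 and 351 CPM across the KO libraries. Lmnb2 (ENSMUSG00000062075, chromosome 10 from 80901203 to 80918245, minus strand) measured 47.2, 34.7 and 34.4 CPM in WT and 82.1, 87.4 and 71.2 CPM in KO, in the same order. Both genes were tightly grouped, with no overlap between groups and WT 3 the highest WT library for each.

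The log2 fold change was 1.45 (SE 0.16) for Lmnb1 and 1.05 (SE 0.16) for Lmnb2 (edgeR quasi-likelihood, adjusted p = 0.00207 and 0.0049). With 1 library left out they ran from 1.33 to 1.56 and from 0.96 to 1.21, past the threshold each time. Markers of cycling cells moved the same way: the 6 genes summed to 171 to 318 CPM in WT and to 1537 to 2001 CPM in KO. Of these genes 6 of 6 rose (100% called, against 29% of all tested genes), and WT 3 was again the highest of the WT libraries. Among them the S-phase gene Pcna rose by 1.92 (SE 0.13), the topoisomerase gene Top2a by 3.47 (SE 0.53) and the proliferation marker Mki67 by 3.34 (SE 0.47), all in log2 units (edgeR adjusted p = 0.000812, 0.00487 and 0.00402). Without WT 3, Top2a stood at 4.30 and Mki67 at 4.03. The part of cell cycling in the lamin values was not tested.

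Lmna encodes lamins A and C (ENSMUSG00000028063, chromosome 3 from 88480147 to 88509956, minus strand). It measured 33.4, 27.9 and 34 CPM across the WT libraries, and 42.4, 36.4 and 32.6 CPM across the KO libraries. KO 3 lay within the WT values, and the spread within either group was among the smallest of the 10 genes, with coefficients of variation of 10.7% and 13.3%. The log2 fold change of 0.22 (SE 0.15) did not pass (edgeR quasi-likelihood, adjusted p = 0.281). With 1 library left out it ran from 0.13 to 0.32 and never passed. It was 0.15 without KO 1, the library with the most fibroblast-type marker RNA, and the part of such cells was not tested.

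Compared per length, the order of the genes differed between the groups. In WT the deposited FPKM (fragments scaled to transcript length and library total) placed Gfap first at 625 ± 389, then Vim at 329 ± 70.2, Lmnb1 at 47.2 ± 8.44, Ina at 28.6 ± 19, Nes at 20.5 ± 5.89, Lmnb2 at 8.89 ± 1.98, Lmna at 5.33 ± 0.658, Nefm at 3.91 ± 3.53, Nefl at 2.25 ± 3.02 and Nefh at 0.0812 ± 0.0902 (SD, n = 3 each). Neighbours whose WT libraries overlapped were Gfap and Vim, Lmnb1 and Ina, Ina and Nes, Lmna and Nefm, and Nefm and Nefl. In KO the order was Vim at 369 ± 93.9 FPKM, Lmnb1 at 134 ± 18.9, Nes at 99.1 ± 20.5, Ina at 63.1 ± 19.6, Gfap at 33.2 ± 14.7, Lmnb2 at 19.1 ± 2.1, Nefm at 8.43 ± 4.99, Nefl at 6.8 ± 4.09, Lmna at 6.5 ± 0.96 and Nefh at 0.399 ± 0.101. There the neighbours Lmnb1 and Nes, Ina and Gfap, Gfap and Lmnb2, Nefm and Nefl, and Nefl and Lmna overlapped. Gfap thus went from the top of the order to the fifth place, and Nes from the fifth place to the third.

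The make-up of the cytoplasmic filament transcripts also differed between the groups. Of the summed FPKM of the 7 cytoplasmic genes, Gfap took 65.3% of the transcripts in WT 6, 72.8% in WT 7 and 31.5% in WT 3, and 6.39%, 6.65% and 3.58% across the KO libraries. Vim took 53%, 31% and 24.5% across the WT libraries, and 61.6%, 68.3% and 59.4% in KO, although in CPM Vim itself stood at 1.07-fold. Nes took 1.22% to 3.93% in WT and 16% to 17.8% in KO. Each of these 3 shares separated the groups without overlap, for which the exact two-sided permutation test gives p = 0.1, the smallest it can give with 3 against 3. The summed FPKM itself was 557, 1320 and 1151 across the WT libraries, and 581, 685 and 474 in KO, so that WT 3 resembled the KO libraries in total but less so in make-up.

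**Figure D4:**
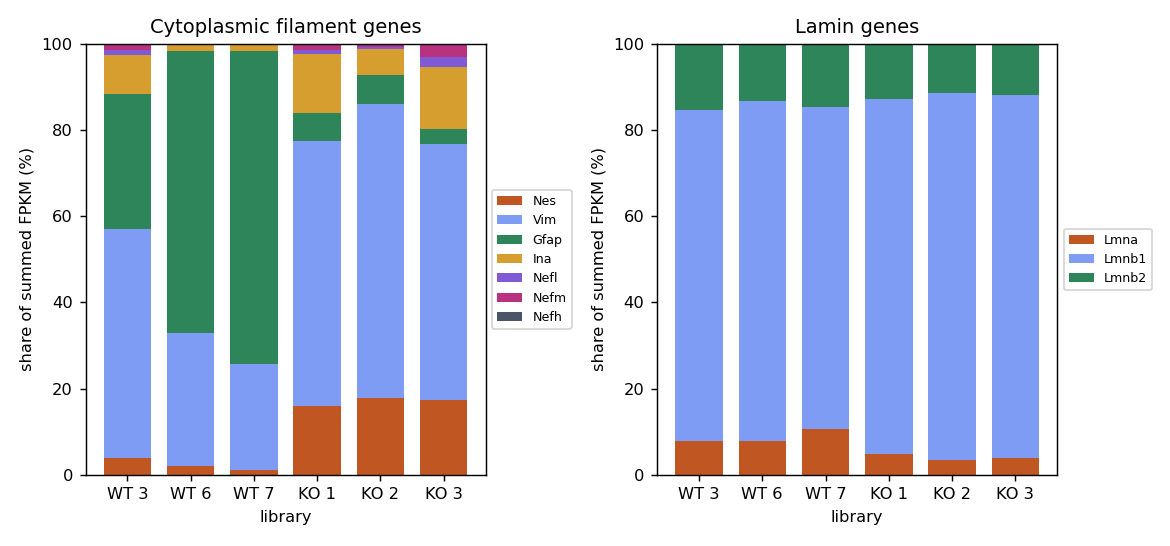
Share of the summed FPKM taken by each of the 7 cytoplasmic filament genes (left) and each of the 3 lamin genes (right) in every library. Gfap fills most of the WT 6 and WT 7 bars, at 65.3% and 72.8%, and Vim most of the KO bars, while Lmnb1 leads the lamin bars in all 6 libraries.

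Among lamin transcripts the A-type share was lower in KO. Lmna took 7.95%, 7.81% and 10.6% of the summed lamin FPKM across the WT libraries, and 4.87%, 3.49% and 3.97% across the KO libraries. Lmnb1 took 74.7% to 78.9% in WT and 82.3% to 85.1% in KO, and Lmnb2 13.2% to 15.3% and 11.4% to 12.8%. A share depends on every gene of its class. In CPM, Lmna (1.17-fold) and Lmnb2 (2.07-fold) were not themselves lower in KO. The 3 lamin genes together summed to 61.4 ± 10.5 FPKM in WT and 159 ± 20.8 FPKM in KO (SD, n = 3 each; exact two-sided permutation p = 0.1, the smallest possible).

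As ratios of FPKM, Nes to Vim was 0.0741, 0.0624 and 0.0498 across the WT libraries, and 0.26, 0.26 and 0.293 in KO. Lmnb1 to Lmna was 9.66, 10.1 and 7.01 in WT, and 16.9, 24.4 and 21.2 in KO. Lmnb2 to Lmna was 1.92, 1.7 and 1.38 in WT, and 2.64, 3.27 and 2.98 in KO. None of these ratios overlapped between groups. A total of 6 pairs was compared by an exact two-sided permutation test of the log2 ratio, and 5 of them, these 3 with Gfap to Vim and Nefm to Nefl, reached the smallest possible p = 0.1 (0.12 after Benjamini-Hochberg adjustment). The sixth, Nefh to Nefl, did not (exact permutation p = 0.8). Nefm to Nefl was 1.39, 3.05 and 5.37 in WT and 1.37, 1.12 and 1.21 in KO. WT 3 and KO 1 were thus barely apart. Nefl had only 52 and 21 reads in WT 6 and WT 7, and shares exonic bases with Nefm.

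Other intermediate filament genes were mostly silent. Of 19 such genes, keratins and muscle, lens and peripheral neuron filaments among them, 12 had too few reads to be tested. Of the 7 tested, 2 rose and 1 fell (42.9% called, against 29% of all tested genes), with a median log2 fold change of 1.18. Iffo2, an intermediate filament family orphan, rose by 1.18 (SE 0.16, edgeR adjusted p = 0.00389) and its paralog Iffo1 fell by 0.72 (SE 0.16, edgeR adjusted p = 0.0165). Synm, encoding synemin, which like nestin joins filaments of vimentin, rose from 7.01, 2.76 and 2.94 CPM in WT to 18.9, 13.2 and 11 CPM in KO (1.77 on the log2 scale, SE 0.42, edgeR adjusted p = 0.0226). The neuronal keratin-family gene Krt222 stood at 1.72 (SE 0.61) and did not pass (edgeR adjusted p = 0.0722), but passed at 2.53 without WT 3 and at 2.18 with limma-voom (adjusted p = 0.0102). The call of Iffo2 held with each library left out, that of Synm held in 2 of 6 cases and that of Iffo1 in 3 of 6. The spans of Synm and Iffo1 overlap Ttc23 and Gapdh on the other strand, and reads there may be shared. Ttc23 has more reads than Synm (mean count 289 against 175), and Gapdh has 26.7% of the mean count of Iffo1.

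Of 13 genes for proteins that link or protect filaments, 10 were tested. Of these, 2 rose and 2 fell (40% called, against 29% of all tested genes), and the median log2 fold change was -0.03. Plectin (Plec), the linker of filaments to actin and to junctions, measured 55.2, 43.6 and 56.1 CPM across the WT libraries and 36.2, 20.5 and 16.9 CPM in KO (-1.07 on the log2 scale, SE 0.29, edgeR adjusted p = 0.0314). Envoplakin (Evpl) fell by 1.13 (SE 0.33) from 1.76 to 2.79 CPM in WT, plakophilin 4 (Pkp4) rose by 1.05 (SE 0.25) and plakoglobin (Jup) by 0.60 (SE 0.18), with edgeR adjusted p of 0.0415, 0.0237 and 0.0447. None of these 4 calls held with every library left out in turn, and that of Evpl held in 0 of 6 cases.

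Partners of the lamins at the nuclear envelope were tested in full. Of 19 genes 6 rose and 2 fell (42.1% called, against 29% of all tested genes). Their median log2 fold change was -0.03. Banf1, whose product ties chromatin to the envelope, measured 112, 128 and 119 CPM across the WT libraries and 214, 267 and 251 CPM in KO. Its log2 fold change was 1.03 (SE 0.12), and Tmpo, encoding the lamin-binding LAP2 proteins, rose by 1.03 (SE 0.14). Lbr, the lamin B receptor gene, rose by 1.06 (SE 0.18) and the nuclear pore gene Nup153 by 0.64 (SE 0.11), and these 4 calls held with each library left out (edgeR adjusted p from 0.0025 to 0.00694 with all libraries). Of 5 enzymes that lipidate and trim the lamin tail, 1 fell and 0 rose (20% called, against 29% of all tested genes). Fnta, the shared alpha subunit of the enzymes that add farnesyl and geranylgeranyl groups, fell by 0.72 (SE 0.11, edgeR adjusted p = 0.00425). The protease gene Rce1 (0.13, SE 0.12), the partner subunit gene Fntb (0.08, SE 0.15) and the methylase gene Icmt (-0.05, SE 0.17) did not pass (edgeR adjusted p from 0.462 to 0.829), and the median of the 5 genes was 0.00.

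Among 11 genes for kinases that act on filament proteins, and their partners, 7 rose and 1 fell, with a median log2 fold change of 0.92. The share called was 72.7%, against 29% of all tested genes. The 4 with the lowest p are mitotic: Cdk1 at 3.34 (SE 0.34), Plk1 at 3.48 (SE 0.37), Aurkb at 3.91 (SE 0.52) and the cyclin gene Ccnb1 at 3.29 (SE 0.51), with edgeR adjusted p from 0.00172 to 0.00534. Their products modify vimentin, nestin or lamins in mitosis, and 2 of them, Cdk1 and Ccnb1, are also in the cycling cell list. Cdk5, the neuronal kinase of nestin and neurofilament tails, is the gene that fell, by 0.49 (SE 0.11, edgeR adjusted p = 0.0169), and was named after its values were seen. Without WT 3, Aurkb stood at 4.78 and Ccnb1 at 4.11. Of 12 transcription factors known at the Nes, Gfap or neurofilament genes, 1 rose and 3 fell, and the median was -0.19. The share called, 33.3%, was near the 29% of all tested genes. Sox2 and Pou3f2, which act on the nestin enhancer, fell by 1.15 (SE 0.20) and 0.82 (SE 0.15), and the gliogenic factor Sox9 fell by 1.43 (SE 0.30), with edgeR adjusted p of 0.00809, 0.0088 and 0.0151. Other Sox and Pou3f genes of the list did not pass (edgeR adjusted p from 0.0527 to 0.701) and were named after their values were seen. Pou3f1 stood at 2.16 (SE 0.68), Sox11 at 0.81 (SE 0.31) and Pou3f3 at -0.09 (SE 0.17). Every KO library exceeded every WT library for Pou3f1. Nfib rose by 0.49 (SE 0.13, edgeR adjusted p = 0.0303). The calls of Sox9 and Nfib ended without WT 6 or WT 7, and that of Nfib also without KO 1 or KO 2.

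The genes most like 4 of the members across the 6 libraries were sought among 13802 tested protein-coding genes, by the root mean square (RMS) difference in log2 CPM after centring each gene on its own mean. Nearest to Lmnb1 were H2afz, a histone variant gene, Smc4, a condensin subunit gene, and Nucks1, a chromatin protein gene, at RMS differences of 0.0426, 0.0442 and 0.0556. H2afz measured 203, 175 and 156 CPM across the WT libraries, and 429, 544 and 443 CPM across the KO libraries. Its order of libraries was that of Lmnb1 within WT but not within KO, where KO 3 exceeded KO 1 for H2afz and not for Lmnb1.

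Nearest to Nes were BC055324, the replication factor gene Rfc4 and geminin (Gmnn), a regulator of replication licensing, at RMS differences of 0.159, 0.215 and 0.219. The spans of BC055324 and Rfc4 overlap Scyl3 and Eif4a2, which have more reads. Nearest to Vim were the cortical patterning gene Emx2, the laminin receptor subunit gene Itga6 and Sytl4, at 0.093, 0.114 and 0.118. Nearest to Gfap were the urea transporter gene Slc14a1, the myelin gene Mobp and the connexin gene Gjc3, at 0.278, 0.284 and 0.457. The measure is not scaled to the size of a gene's change, which was largest for Gfap among the members. These distances therefore cannot be set against those of Lmnb1. Slc14a1 measured 5.22, 19.5 and 23.2 CPM across the WT libraries and 1.15, 1.13 and 0.568 CPM in KO, with WT 3 again between the groups. Mobp was at or under 1 read in each KO library, and with a prior count of 0.5 it left the nearest 3 and Abhd3 (0.54) entered. Among the 10 genes themselves, the nearest pair on this unscaled measure was Lmnb1 and Lmnb2 at 0.22, and the farthest was Gfap and Nefl at 3.91.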

How the data were processed

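RNA was sequenced from day 6 neurospheres of E14.5 mice in 3 WT and 3 KO libraries, grouped and numbered by their titles. Per the submitters' processing notes, HISAT2 2.0.5 and featureCounts 1.5.0-p3 were used with mm10, and DESeq2 1.16.1 is also named. How they were set, whether strand was used and which annotation served is not given in the sources used here. Deposited by the authors were whole-number read counts per gene, not normalised, per the file headers, and FPKM made from the table's gene length and the library total. For all 60 values of the members the count and the FPKM gave the same reads within 0.05, using the library totals that the FPKM imply.

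Counts were normalised by TMM and filtered with filterByExpr, and KO was tested against WT in 1 fit of all 6 libraries with edgeR 4.0.16 in R 4.3.3 (two-sided quasi-likelihood F test, Benjamini-Hochberg over all tested genes, threshold 0.05). The SE is the log2 fold change divided by the square root of F. At these depths 3 reads equal 0.142 to 0.172 CPM. Alternatives were RLE factors, library totals, no filter, 1 CPM in 3 libraries, DESeq2 1.42.0, limma-voom and limma (3.58.1) on log2 FPKM after adding 1 or 0.1, keeping genes that averaged 0.5 FPKM or more, and each library left out. Likeness used log2 CPM with a prior count of 2.

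The members and lists were chosen with earlier results of these data known. Named beside the members are Ash2l, the up to 4 genes of each pathway list with the lowest p, the up to 3 most abundant of the marker lists and the 3 genes nearest in pattern to Nes, Vim, Gfap and Lmnb1. Cdk5, Pou3f1, Pou3f3, Sox11, Agt, Sox10, Pdgfra and Cspg4 were named after their values were seen.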

Additional observations from a re-analysis of the deposited data

How the results depend on the processing

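The calls of Nes, Gfap, Lmnb1 and Lmnb2 held in all 14 alternatives, and Vim and Lmna passed in 0 of 14. Nefh passed in 7 of the 12 alternatives that tested it. Limma-voom called 4133 genes higher and 3919 lower, and 7 members higher. With 1 library left out, the counts were 1027 to 3500 higher and 1151 to 3141 lower, and 3 to 7 members were higher. The highest of each came without WT 3 and the lowest of the all-gene counts without WT 6. Signs turned only for values that had not passed: Vim (-0.11 to 0.30 with 1 library left out), Fntb (-0.0085 to 0.20), Icmt (-0.20 to 0.10 with 1 library left out, and 0.0070 with library totals) and the log2 ratio of Nefh to Nefl (0.36, against -0.77 and -1.16 with 0.1 and 1 added to FPKM). With 1 library left out, the signs of 4 markers that had not passed also turned: Olig1 (-0.40 to 0.13), Olig2 (-0.23 to 0.19), and the microglia genes C1qa (-1.04 to 1.39) and Cx3cr1 (-0.015 to 1.20). The causes were not tested. No paired analysis was possible because the groups share only replicate number 3. Nefh, at 2 and 3 reads in WT 6 and WT 7, is limited by depth.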

Other observations

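Set against the markers of a cell type or of cycling cells, chosen as a measure after the values were seen, the members differed. Per 1000 CPM of astrocyte markers, Gfap measured 263, 705 and 572 CPM across the WT libraries, and 94.9, 84.3 and 42.2 CPM across the KO libraries, so the groups stayed apart. The most abundant of these markers, Slc1a3, did not pass and weighs on that ratio. It made up 877, 1357 and 1954 CPM of sums of 2774, 5373 and 6435 CPM in WT. In KO it made up 823, 1342 and 768 CPM of sums of 1595, 2240 and 1683 CPM. Per 1000 CPM of neuron markers, Ina measured 28.8 to 46.7 CPM in WT and 37.7 to 55.6 CPM in KO, Nefm 4.96 to 13.1 CPM and 6.48 to 20.4 CPM, and Nefl 0.539 to 5.52 CPM and 3.36 to 9.8 CPM, and all 3 overlapped between groups. Per 1000 CPM of cycling cell markers, Lmnb1 measured 515 to 772 CPM in WT and 226 to 232 CPM in KO, Lmnb2 148 to 201 CPM and 43.7 to 52.2 CPM, and Nes 435 to 924 CPM and 341 to 384 CPM. These 3 genes were higher in KO in CPM but rose by less than the summed markers did, so each ratio was lower in every KO library. These ratios were not tested.

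Desmin (Des), at 1.09 CPM also in KO 3, and the simple epithelial keratin genes Krt8 and Krt18, all under the filter on low counts, measured 1.08, 1.08 and 1.24 CPM in KO 2, against at most 0.15, 0.451 and 0.15 CPM in any WT library. In KO 1 and KO 3, Krt8 measured 0.0575 and 0.425 CPM, both within the WT range, and Krt18 0.173 and 0.378 CPM. Des measured 0.288 CPM in KO 1.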
